A study of Mus musculus with 3 samples.

Results

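The mouse mitochondrial genome carries 37 genes, and all 37 were measured here among the 55536 genes of each deposited gene table. They were taken as every gene whose GENCODE symbol starts with mt-, which gave 13 mRNAs, 2 rRNAs and 22 tRNAs. Mitochondrial DNA is a small circle that is transcribed on both strands into long precursors, by the polymerase Polrmt. The tRNAs lie between the other genes like punctuation, and cutting them out releases the mRNAs and rRNAs. The mRNAs encode core subunits of respiratory complexes I, III and IV and of ATP synthase, and their order and strand are largely shared by placental mammals.

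The RNA came from the cytosolic fraction of bone-marrow-derived macrophages of the C57BL/6J mouse strain, cells grown in culture from marrow precursors. All libraries are of 1 group, cells treated for 20 min with 100 ng/ml Lipid A, the lipid anchor of bacterial endotoxin and a ligand of the receptor Tlr4. The labels number the 3 libraries as biological replicates 1, 2 and 3 but give them the same donor, so the SDs below cover the variation among these samples only, which may be technical. Ribosomal RNA was removed from 1 µg of total RNA before sequencing, and the labels give a size range of 250 to 400 without a unit. Untreated cells and nuclear RNA are not analysed here, so the values are levels and say nothing of a response to Lipid A.

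Genes held 27282444, 81509889 and 37131774 expected counts in replicates 1, 2 and 3, where an expected count is an estimate of the reads of a gene that need not be whole. Replicate 2 was the deepest library. All 8 macrophage markers reached 1 TPM (counts corrected for transcript length and scaled to a fixed sum per library) in every library, among them Lyz2 at 4579 ± 1025 TPM (SD, n = 3). None of the 6 markers of T cells, B cells, neutrophils, red cells, fibroblasts or epithelium passed 0.120 TPM in any library, and Epcam, the epithelial marker, was listed at 0. Nuclear noncoding RNA was present in the fraction, with Malat1 at 359, 248 and 763 TPM and Neat1 at 31.7, 23.6 and 83.9 TPM in replicates 1, 2 and 3. Fewer cells and less RNA per cell cannot be told apart in such bulk samples.

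In the mm10 annotation the members sit end to end on chromosome M. Of 36 neighbouring pairs, 9 overlap, 12 abut, 14 are 1 to 10 bases apart and 1, mt-Tn and mt-Tc, is 32 bases apart. The plus strand holds 12 mRNAs, both rRNAs and 14 tRNAs, and the minus strand holds mt-Nd6 and 8 tRNAs. The mRNAs lie in this order. The complex I genes mt-Nd1 and mt-Nd2 are at chrM:2751-3707 and chrM:3914-4951. The complex IV genes mt-Co1 and mt-Co2 are at chrM:5328-6872 and chrM:7013-7696. The ATP synthase genes mt-Atp8 and mt-Atp6 are at chrM:7766-7969 and chrM:7927-8607, and mt-Co3 follows at chrM:8607-9390. Then come mt-Nd3 at chrM:9459-9806, mt-Nd4l at chrM:9877-10173, mt-Nd4 at chrM:10167-11544, mt-Nd5 at chrM:11742-13565, mt-Nd6 at chrM:13552-14070 and mt-Cytb, the complex III gene, at chrM:14145-15288. The rRNAs mt-Rnr1 and mt-Rnr2 are at chrM:70-1024 and chrM:1094-2675.

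The pairs of reading frames with the longest overlaps on the plus strand are shown because reads over the shared bases belong to both genes. mt-Atp6 and mt-Co3 share only the base at chrM:8607, which is not printed. In mt-Atp8 and mt-Atp6 the 43 shared bases run from the start codon of mt-Atp6 to the stop codon of mt-Atp8, and in mt-Nd4l and mt-Nd4 only 7 bases are shared. Capitals mark the start codon of the second gene and the stop codon of the first, the strand is plus, and the sequences are from the GENCODE M21 transcripts (mm10).
mt-Atp8 and mt-Atp6, chrM:7927-7969: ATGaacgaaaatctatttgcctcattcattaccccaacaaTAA
mt-Nd4l and mt-Nd4, chrM:10155-10185: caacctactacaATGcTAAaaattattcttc

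Of the mRNAs, 7 have a near-identical annotated copy in the nuclear genome, between which the tables split the reads. The 7 copies are annotated as unprocessed pseudogenes and lie in the gene order of the mitochondrial genome in 1 block of 4663 bases on the minus strand, at chr1:24611535-24616197. Over 4149 bases compared, 7 differ between copy and mitochondrial gene, and 5 of the copies have no difference at all. Gm28661 matches 681 of the 684 bases of mt-Co2, Gm28437 matches 783 of the 784 bases of mt-Co3, Gm10925 matches 678 of the 681 bases of mt-Atp6 and Gm10222 matches 294 of the 297 bases of mt-Nd4l. Gm28439 covers the first 876 of the 1378 bases of mt-Nd4, Gm28438 covers 345 of the 348 bases of mt-Nd3, and Gm29216 covers bases 1054 to 1545 of mt-Co1. mt-Nd1, mt-Nd2, mt-Atp8, mt-Nd5, mt-Nd6 and mt-Cytb have no annotated copy in this block. Only annotated transcripts were searched, so bases of the block outside the annotated copies were not compared. Among them are those between Gm10925, which ends at chr1:24614651, and Gm28661, which starts at chr1:24614885. In gene order this is where mt-Atp8 would lie.

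The differing stretches are printed because no other compared base separates these genes from their copies. Positions are counted from 1 at the first base of the mitochondrial gene, the mitochondrial base stands first, and capitals mark the differing bases. mt-Co1 and Gm29216 differ by T1056A, C1057T, A1059G, A1060G, C1062A and A1066T, and mt-Nd3 and Gm28438 differ by T3C. The mt-Co2 and Gm28661 ends show a pair with no differing base, where only the stop codon of mt-Co2, in capitals, has no counterpart in the annotated copy.
mt-Co1, chrM:6381-6410, plus strand: ggTCtAAcCggaAttgttttatccaactca
Gm29216, chr1:24616168-24616197, minus strand: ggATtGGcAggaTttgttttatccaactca
mt-Nd3, chrM:9459-9476, plus strand: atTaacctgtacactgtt
Gm28438, chr1:24613102-24613119, minus strand: atCaacctgtacactgtt
mt-Co2, chrM:7664-7696, plus strand: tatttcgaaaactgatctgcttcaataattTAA
Gm28661, chr1:24614885-24614914, minus strand: tatttcgaaaactgatctgcttcaataatt

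How much of the sequence is shared was counted in windows. Of all 100-base windows of mt-Co2, mt-Atp6, mt-Co3, mt-Nd3 and mt-Nd4l, 99.5%, 99.5%, 99.9%, 97.6% and 98.5% also occur in a nuclear transcript, against 60.8% for mt-Nd4 and 30.8% for mt-Co1. mt-Nd2 has 3.19% of such windows, in Gm13339, and for mt-Nd1, mt-Atp8, mt-Nd5, mt-Nd6, mt-Cytb and both rRNAs the share is 0. mt-Co1 and mt-Co2 also share windows with the chromosome 2 pseudogenes Gm13340 and Gm13341. These held few counts, at most 43.3 in any library and either transcript table for Gm13340 and 12.4 for Gm13341.

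The tables placed very unequal shares of these reads on the mitochondrial genes, and the shares differed between the tables for the same libraries. For each gene and its copy the counts of both were summed, and the share on the mitochondrial gene was taken in each library. mt-Co2, the complex IV subunit that receives electrons from cytochrome c, received 9.54% ± 0.201 of the pair's counts in the second transcript table and 1.18% ± 0.178 in the gene table (SD, n = 3 throughout). mt-Atp6, the proton-channel subunit of ATP synthase, received 99.2% ± 0.358 in the second table and 18% ± 5.15 in the gene table. mt-Nd4l, a small membrane subunit of complex I, received 100.0% in every library of the second table and 42.5%, 55.9% and 43.4% in replicates 1, 2 and 3 of the gene table. The 2 tables do not overlap for any of these genes.

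For mt-Co3, a core subunit of complex IV, the share was 39.2% ± 3.68 in the second table, against 35.3%, 17% and 13.3% in replicates 1, 2 and 3 of the gene table. Replicate 1 of the gene table lay far above the others, near the lowest value of the second table, 35.8%. For mt-Nd3, a small membrane subunit of complex I, the shares were 59.7% ± 9.22 in the second table and 52.9% ± 8.74 in the gene table, and they overlapped. mt-Co1, the catalytic subunit of complex IV, kept 94.3% ± 1.75 in the second table and 94.6% ± 1.70 in the gene table. mt-Nd4 kept 99.5%, 100.0% and 93.4% in the second table, with 2773 counts on Gm28439 in replicate 3, and 100.0% in every library of the gene table.

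**Figure D1:**
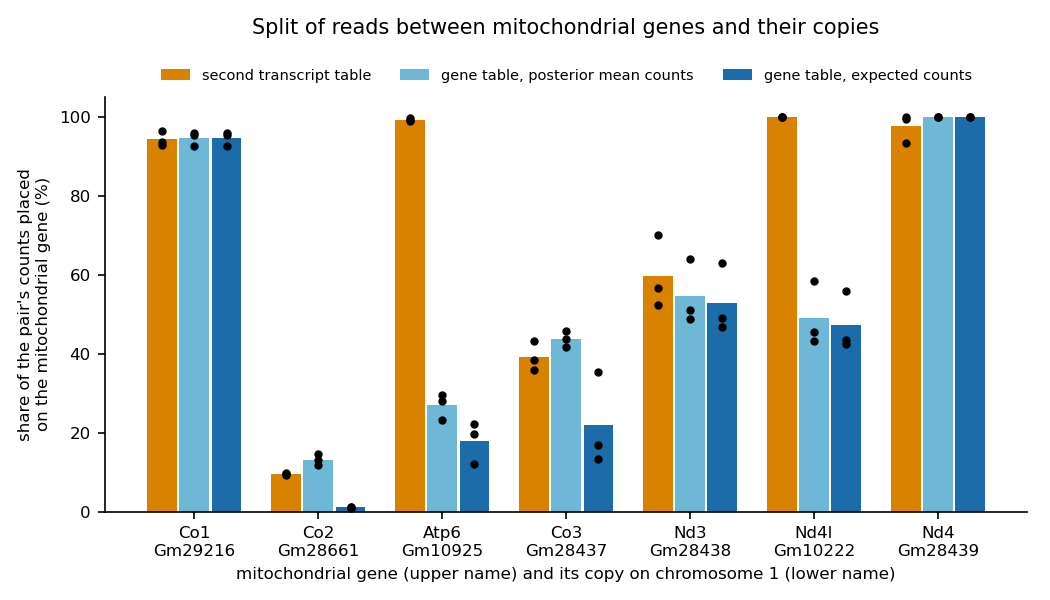
Share of the counts of each mitochondrial gene and its chromosome 1 copy that was placed on the mitochondrial gene, in percent, for 3 estimates. Bars are means and points the 3 libraries. mt-Co1 and mt-Nd4 lie above 90 in each library and estimate, mt-Co2 stays at 14.7 or lower, and the second table has mt-Atp6 and mt-Nd4l near 100.0.

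The gene table also carries a posterior mean and SD for each count, which describe how firmly the reads place a gene's count. The SD was 29.3%, 18.1%, 15.4%, 12.3% and 11.9% of the posterior mean count for mt-Co2, mt-Atp6, mt-Co3, mt-Nd3 and mt-Nd4l (mean of 3 libraries). In the other 8 mRNAs it was 0.124% or less. For mt-Co2 the posterior mean TPM was 11.6, 11.2 and 10.2 times the TPM in replicates 1, 2 and 3. The share of its pair was then 13.2% ± 1.53. The posterior mean raised mt-Co3 to 43.7% ± 2.06 of its pair, with the libraries close together at 45.8%, 43.6% and 41.7%.

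Summed over the 7 pairs, the nuclear copies held 25.2% ± 0.974 of the counts in the second table and 38.3% ± 2.63 in the gene table. As a share of the 13 mRNAs and their copies together this was 18% ± 0.738 and 27.2% ± 1.74. Whether any of these reads came from the nuclear block was not tested, since no base separates most of it from the mitochondrial genes. Levels of the 7 genes are therefore given both as deposited and with the counts of the copy added. The second form keeps the effective length of the mitochondrial gene, the number of positions at which a fragment can start, and was chosen after the values were seen.

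All 13 mRNAs reached 1 TPM in all 3 libraries, where 16.8% of all genes did. Their median was 244, 204 and 403 TPM in replicates 1, 2 and 3, and 397, 264 and 589 TPM with the copies added. Over the 9730 genes that averaged 1 TPM or more, the median was 7.28, 6.40 and 5.76 TPM. TPM was also rescaled over nuclear-encoded protein-coding genes, which takes all other genes out of the sum. The medians were then 978, 926 and 2052 TPM for the mRNAs, against 29.2, 29.1 and 29.3 TPM for the 9730 genes. The median mitochondrial mRNA thus stood far above the typical expressed gene in every library and on both scales. This does not hold for each mRNA, since mt-Co2 had only 8.67, 9.71 and 18.4 TPM as deposited.

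Among complex IV genes, mt-Co1 had 919, 762 and 1531 TPM in replicates 1, 2 and 3. As deposited, mt-Co2 had only 8.67, 9.71 and 18.4 TPM, while its copy Gm28661 had 882, 735 and 1452 TPM. mt-Co2 was the lowest of the 13 mRNAs in each library in this form. With the copy added it had 885, 740.1 and 1461 TPM and ranked the third of 13 in each library, next to mt-Co1. mt-Co3 had 244, 99.8 and 158 TPM as deposited, with replicate 1 highest, and 692, 588 and 1191 TPM with the copy added, with replicate 3 highest. The order of the libraries for mt-Co3 thus differed between the 2 forms.

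In ATP synthase, mt-Atp8 had 1598, 1230 and 2622 TPM and was the highest mRNA in every library of the gene table. It encodes a small subunit of the stalk of the enzyme. mt-Atp6 had 127, 59.6 and 192 TPM as deposited and 575, 489 and 974 TPM with the copy added. Replicate 3 was highest for both genes.

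Complex I has 7 of the mRNAs. mt-Nd1 had 318, 264 and 575 TPM in replicates 1, 2 and 3, mt-Nd2 had 131, 109 and 231 TPM, and mt-Nd5 had 216, 187 and 392 TPM. These membrane subunits have no annotated copy in the chromosome 1 block, and each had replicate 3 highest and replicate 2 lowest. mt-Nd4 had 249, 204 and 425 TPM both with and without its copy, which the gene table left at 0 counts. mt-Nd3 had 195, 166 and 275 TPM as deposited and 397, 263 and 589 TPM with the copy added, and mt-Nd4l had 219, 212 and 403 TPM as deposited and 515, 380.2 and 929 TPM with the copy added. By mean TPM mt-Nd4l ranked 7 as deposited and 6 with the copy added. mt-Cytb, the cytochrome b of complex III, had 302, 264 and 532 TPM.

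**Figure D2:**
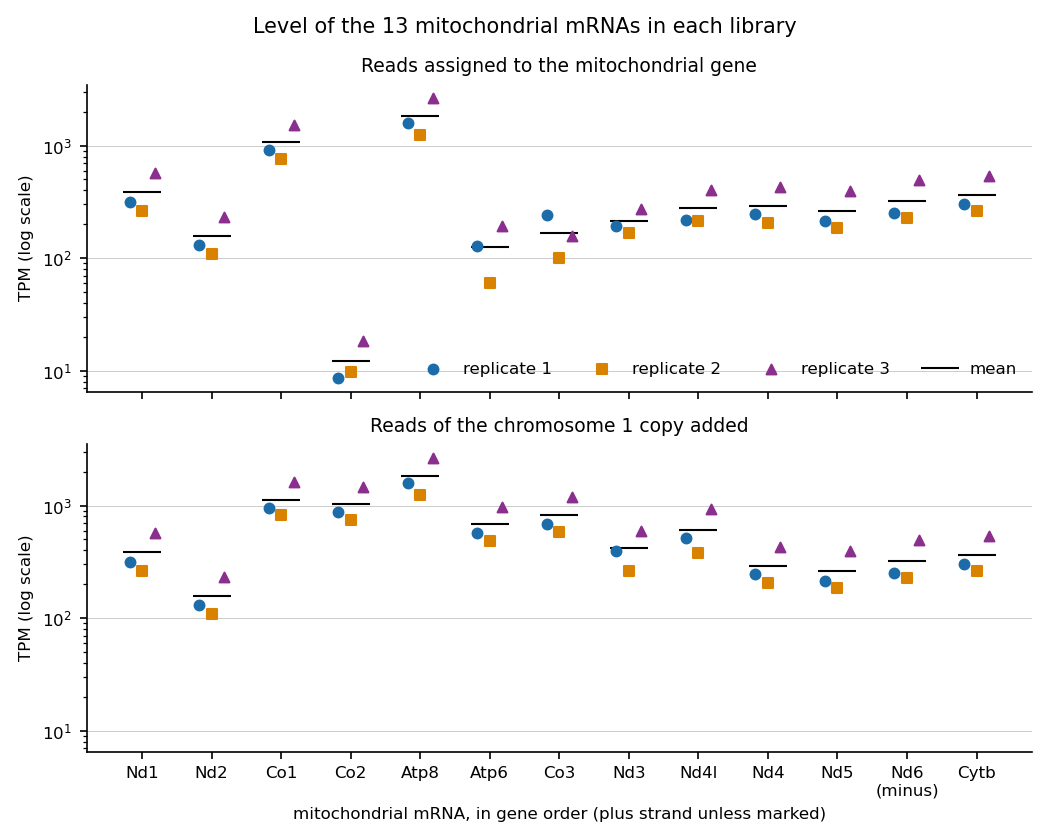
TPM of the 13 mitochondrial mRNAs on a log scale, in gene order, with 1 point per library and a bar at the mean, as deposited (upper panel) and with the copy's counts added (lower panel). mt-Co2 stands apart at 12.3 ± 5.34 TPM in the upper panel and at 1029 ± 381 TPM beside mt-Co1 in the lower one.

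By mean TPM the mRNAs spanned 11.6-fold with the copies added, with mt-Atp8 at 1817 ± 721 TPM the highest and mt-Nd2 at 157 ± 64.7 TPM the lowest. As deposited the span was 148-fold, with mt-Co2 the lowest. The rank of a gene was the same in all 3 libraries for 10 of 13 mRNAs with the copies added and for 6 of 13 as deposited. The order with the copies added was mt-Atp8, mt-Co1, mt-Co2, mt-Co3, mt-Atp6, mt-Nd4l, mt-Nd3, mt-Nd1, mt-Cytb, mt-Nd6, mt-Nd4, mt-Nd5 and mt-Nd2. Only mt-Nd3, mt-Nd1 and mt-Cytb changed places between libraries. The means of mt-Atp8 and mt-Co1, of mt-Nd4l and mt-Nd3 and of mt-Nd5 and mt-Nd2 differed by more than the SD of the lower gene, and those of the other neighbours by less than either SD. These SDs include the shift between libraries that the mitochondrial mRNAs share, so they are no measure of differences between genes within a library. Ranks within a library do not depend on that shift.

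Read as shares of the summed mRNA TPM, with the copies added, complex IV held 36.2% ± 0.993, ATP synthase 30.1% ± 0.461, complex I 29.3% ± 0.968 and complex III 4.42% ± 0.159. As deposited the order was different, with ATP synthase at 35.3% ± 1.14, complex I at 34.9% ± 1.63, complex IV at 23.1% ± 1.40 and complex III at 6.68% ± 0.329. In the second table with the copies added, complex IV held 41.0% ± 0.651, complex I 32.7% ± 1.14, ATP synthase 21.3% ± 0.495 and complex III 4.91% ± 0.143. Complex IV was the largest share in both tables once the copies were added, and complex III, with its single gene, the smallest throughout. With the copies added, mt-Atp8 alone held 21.9% of the summed TPM in the gene table and 11.9% in the second table. Its length correction, given below, thus enters the share of every complex. In the gene table ATP synthase and complex I had no fixed order, with ATP synthase at 30.7%, 29.8% and 29.9% and complex I at 29.3%, 28.3% and 30.3% in replicates 1, 2 and 3 with the copies added.

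The lead of mt-Atp8 varied with its length correction. Its transcript has 204 bases, and the gene table gives it an effective length of 19.8, 24.5 and 24 bases in replicates 1, 2 and 3. The second table gives 46.4, 48.7 and 53.3 bases in replicates 1, 2 and 3. There mt-Atp8 had 292, 252 and 417 TPM and ranked the second, after mt-Co1. mt-Atp8 over mt-Atp6 was 3.66, 4.37 and 3.77 on the log2 scale in TPM as deposited, a mean of 15.3-fold. With the copy added to mt-Atp6 the log2 ratio was 1.41 ± 0.07, and it was 0.36 ± 0.05 in the second table. Expected counts per base of full length, with the copy added, turned the ratio to -1.19 ± 0.09. The size of this ratio changed with the copies and the length used, and its sign where both were changed, and reads over the 43 shared bases were split by the estimate.

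mt-Nd4l over mt-Nd4, the other pair printed above, was -0.07 ± 0.12 on the log2 scale in TPM as deposited. The genes thus did not differ beyond the spread between libraries. With the copies added the log2 ratio was 1.02 ± 0.11, and in the second table as deposited also 1.02 ± 0.11. Per base of full length, with the copies added, it was -0.51 ± 0.14. The effective length of mt-Nd4l was 77.4, 91.8 and 89.9 of 297 bases in the gene table. The sign of this ratio thus changed with the copies and with the length correction.

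mt-Nd6 is the single mRNA of the minus strand and encodes a membrane subunit of complex I. It had 250.0, 226 and 499 TPM in replicates 1, 2 and 3, against a median of the 12 plus-strand mRNAs that was lower by 0.11, 0.21 and 0.33 on the log2(TPM + 0.1) scale in the same libraries. The mean difference was 0.22 ± 0.11, higher in 3 of 3 libraries, with an exact two-sided sign-flip p of 0.25, the smallest that 3 libraries allow. mt-Nd6 was, with the copies added, below that median in 3 of 3 libraries, with differences of -0.85, -0.49 and -0.57 (mean -0.64 ± 0.19, exact sign-flip p 0.25). In the second table the difference was 0.01 ± 0.11 as deposited and -0.50 ± 0.17 with the copies added. The minus-strand mRNA was therefore of the same order as the plus-strand mRNAs, and the sign of the difference changed with the treatment of the copies. The sources used here do not say whether the libraries keep strand, and without it reads of mt-Nd6 and of antisense RNA from the opposite strand cannot be told apart.

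The 2 transcript tables gave nearly the same total for each mRNA once its copy was included. The second table was made directly from the reads and the first from alignments, per the deposited notes, and the first had the same TPM for these genes as the gene table. Second over first, the counts of the 6 mRNAs without an annotated copy were 1.06 to 1.14 times as high by mean. The median over 9710 genes was 1.09. The 7 mRNAs with a copy ranged from 1.06 to 8.66. The 13 ratios lay between 1.05 and 1.26 with the copies added.

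At least 2-fold apart in counts were 4 of 13 mRNAs, mt-Co2, mt-Atp6, mt-Co3 and mt-Nd4l, where 1.71% of 9586 genes were. mt-Co2 was 10.4, 7.43 and 8.12 times as high in the second table in replicates 1, 2 and 3. mt-Atp6 was 4.93, 8.69 and 5.45 times as high and mt-Nd4l 3.05, 2.23 and 2.84 times. mt-Co3 was 1.30, 2.21 and 3.05 times as high, with replicate 1 the closest. With its copy added, mt-Nd4l stayed the farthest of the 13 at 1.26, and mt-Co2, mt-Atp6 and mt-Co3 stood at 1.06, 1.08 and 1.05. All 4 genes have a copy over nearly their full length, as does mt-Nd3, which was not 2-fold apart.

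**Figure D3:**
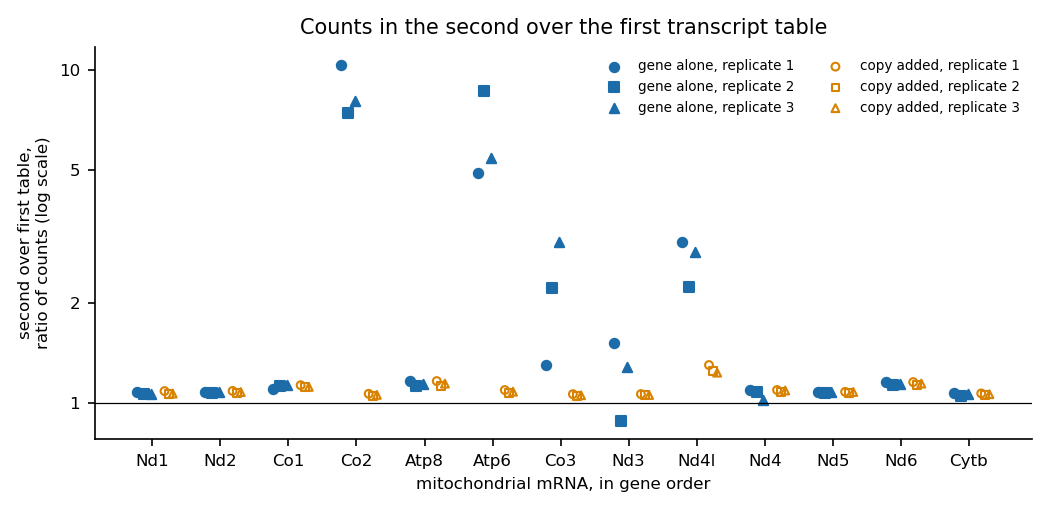
Ratio of estimated counts in the second table over expected counts in the first for each mRNA, on a log scale, with filled symbols for the gene alone and open symbols with the copy added. Filled symbols reach 10.4 at mt-Co2, and with the copy added the mean ratio of each gene lies between 1.05 and 1.26.

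In TPM the second table was lower at the median, with a log2 difference of -1.36 over the 13 mRNAs and -1.31 over 9730 genes. The members were thus close to the shift of the whole table. mt-Co2 and mt-Atp6 went the other way, at 1.58 ± 0.36 and 1.11 ± 0.51. mt-Atp8 had the largest fall of the 13, -2.46 ± 0.18, with nearly unchanged counts at ratios of 1.16, 1.12 and 1.14.

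Replicate 3 held the highest mitochondrial share of the libraries. The 37 genes took 0.520%, 0.469% and 1.01% of expected counts in replicates 1, 2 and 3, with Wilson 95% intervals of 0.517% to 0.522%, 0.468% to 0.471% and 1.01% to 1.01%, which cover counting error only. The mRNAs made up nearly all of it. The shares were, with the copies added, 0.695%, 0.658% and 1.39%, and in the second table as deposited 0.526%, 0.477% and 0.945%.

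The mRNAs shifted together. With the copies added, replicate 3 was above the mean of the 3 libraries for 13 of 13 mRNAs on the log2(TPM + 1) scale, with deviations of 0.57 to 0.71, and replicate 2 was below it for 13 of 13, with deviations of -0.58 to -0.40. Over the 9730 genes, the median deviation was 0.14, -0.01 and -0.13 in replicates 1, 2 and 3. In TPM the typical gene was lowest in replicate 3, where the mitochondrial mRNAs were highest. With the copies added, the mRNAs held 0.709%, 0.577% and 1.20% of TPM in replicates 1, 2 and 3. What lowered the typical gene in replicate 3 was not tested. After rescaling over nuclear protein-coding genes, the median of the 9730 genes was level, at 29.2, 29.1 and 29.3 TPM. Replicate 3 over replicate 1 was a median of 1.72-fold with the copies added, and 2.19-fold after rescaling over nuclear protein-coding genes. Replicate 3 over replicate 2 was 2.09-fold, and 2.35-fold after rescaling. Replicate 1 over replicate 2 was 1.20-fold, and 1.05-fold after rescaling, with 12 of 13 mRNAs higher. In TPM of the second table with the copies added, these medians were 1.40-fold, 1.74-fold and 1.22-fold in the same order.

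As deposited, mt-Co3, mt-Atp6 and mt-Co2 were farther from this common pattern. mt-Co3 deviated from its own mean by 0.63, -0.65 and 0.01 in replicates 1, 2 and 3, and mt-Atp6 by 0.16, -0.91 and 0.75. mt-Co2 deviated by -0.38, -0.24 and 0.62, with replicate 1 lowest. With the copies added, mt-Co3 deviated by -0.18, -0.42 and 0.60, mt-Atp6 by -0.18, -0.41 and 0.58 and mt-Co2 by -0.16, -0.41 and 0.57. All 3 were then close to mt-Cytb, which has no annotated copy in the block, at -0.21, -0.40 and 0.61. mt-Nd3 and mt-Nd4l, also copied over nearly their full length, came no closer to it. mt-Nd3 deviated by -0.09, -0.32 and 0.41 as deposited and by 0.01, -0.58 and 0.58 with the copy added. For mt-Nd4l these values were -0.28, -0.32 and 0.60 as deposited and -0.14, -0.57 and 0.71 with the copy added.

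**Figure D4:**
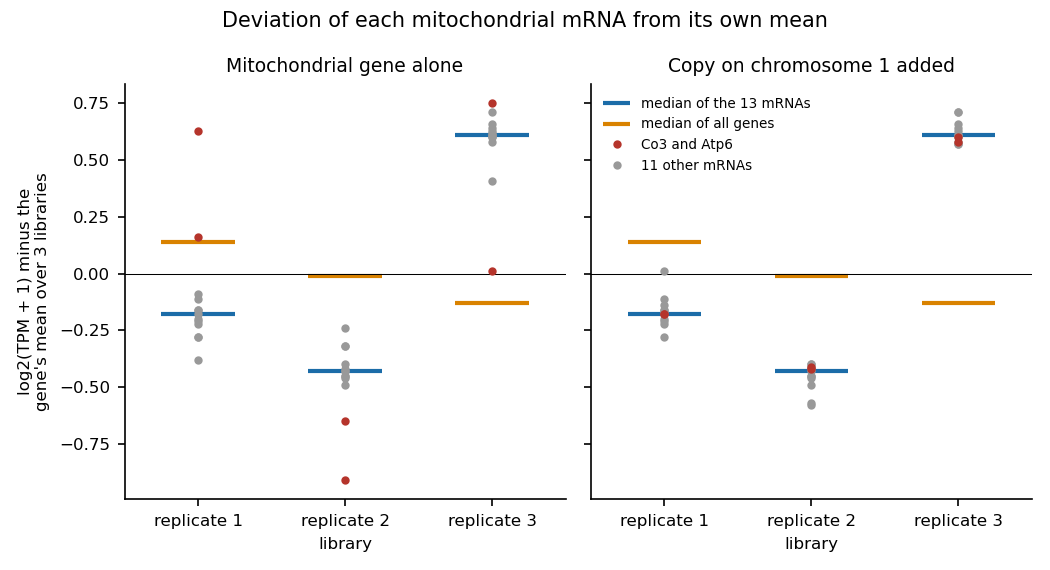
Deviation of each mRNA from its own mean on the log2(TPM + 1) scale in each library, as deposited (left) and with the copies added (right), with the medians of the 13 mRNAs and of all 9730 genes as bars. On the right, replicate 3 lies between 0.57 and 0.71 for all 13 mRNAs, while the median of all genes is -0.13.

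The median SD between libraries was 0.55 over the 13 mRNAs, on the log2(TPM + 1) scale, and 0.16 over the 9730 genes. In the second table the contrast was smaller, at 0.41 and 0.22. Without replicate 3 the 2 medians of the gene table were 0.19 and 0.12, and without replicate 1 they were 0.75 and 0.11. After the common shift was taken out, as the median level of the 13 mRNAs in each library, the median SD of the mRNAs was 0.08 as deposited and 0.18 with the copies added. With the shift taken as the median deviation from each gene's own mean, a rule chosen after the values were seen, it was 0.07 as deposited and 0.04 with the copies added, so whether the copies widen or narrow the rest of the spread depends on that rule. On counts, the coefficient of variation from edgeR's dispersion was 0.304 for the mRNAs at the median, from 0.233 for mt-Nd3 to 0.372 for mt-Atp6, and 0.104 for 12430 genes. Without replicate 3 it was 0.0942 for the mRNAs and 0.102 for all genes. The contrast with all genes also depended on the filter and the tool. Without the filter on low counts the medians were 0.269 for the mRNAs and 0.291 for 22129 genes. With DESeq2, also without the filter and over 22129 genes, they were 0.490 and 0.334.

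Malat1, an abundant RNA of nuclear speckles, and Neat1, the RNA scaffold of paraspeckles, had the same order of libraries as the mitochondrial mRNAs, highest in replicate 3 and lowest in replicate 2, with the values given above. The part of the fractionation in the mitochondrial values was not tested. The 5 other genes closest to the common profile of the mRNAs, among 3538 genes that averaged 10 TPM or more and by root mean square distance on the log2(TPM + 1) scale over 3 libraries, were Gm25835, Gm28661, Snord15a, Gm26083 and Gm10925. Gm28661 and Gm10925 are the copies of mt-Co2 and mt-Atp6. Gm25835 and Snord15a are annotated as snoRNAs and Gm26083 as a scaRNA. Gm25835 lay at 0.018, with 13.8, 11.5 and 23.9 TPM in replicates 1, 2 and 3, and Snord15a at 0.070, with 17, 15.5 and 29.1 TPM. The median distance over the 3538 genes was 0.549, and that of the 13 mRNAs themselves 0.053, with mt-Co3 the farthest at 0.597. The profile was taken from these 13 mRNAs, so their own distance from it is small in part by construction.

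Both rRNAs stayed below the mRNAs other than mt-Co2 in every library, and below all 13 with the copies added. Ribosomal RNA had been depleted before sequencing, and how far that reached the mitochondrial rRNAs was not tested. mt-Rnr1, the RNA of the small mitochondrial ribosomal subunit, had 11.2, 2.66 and 11.3 TPM in replicates 1, 2 and 3, from 409, 325 and 656 expected counts. mt-Rnr2, the RNA of the large subunit, had 5.42, 1.17 and 6.55 TPM, from 370.0, 265 and 704 expected counts. Both were lowest in replicate 2, the deepest library. Together they held 0.348%, 0.101% and 0.227% of the summed mRNA TPM.

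The 2 tables did not give the same order of the rRNAs. mt-Rnr1 over mt-Rnr2 was 0.930, 0.672 and 0.668 in TPM of the second table and 2.06, 2.27 and 1.72 in TPM of the first. Second over first, the counts of mt-Rnr2 were 4.04, 6.62 and 4.28 times as high and those of mt-Rnr1 1.80, 1.95 and 1.67 times. Of the 31-base windows of mt-Rnr2, 2.71% occur in a nuclear transcript, in Gm20594, which held 0 counts in both tables, and mt-Rnr1 shares none. What sets the tables apart for the rRNAs was not tested.

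The tRNAs could not be counted in the gene table. All 22 are 59 to 75 bases long, and the gene table gives each an effective length of 0 and 0 counts, as it gives an effective length of 0 to 8.61% of all genes. A 0 there is not an absence of RNA. The second table gives effective lengths of 15.9 to 21.2 bases and placed 297, 621 and 664 counts on the tRNAs in replicates 1, 2 and 3, or 0.000901%, 0.000625% and 0.00134% of all counts. Replicate 3 was highest per count, as for the mRNAs.

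These few counts fell almost wholly on 1 strand. The 14 plus-strand tRNAs together had 9, 26 and 23 counts in replicates 1, 2 and 3, and the 8 minus-strand tRNAs had 288, 595 and 641. The minus-strand share was 97.0%, 95.8% and 96.5%, with exact binomial 95% intervals of 94.3% to 98.6%, 93.9% to 97.2% and 94.8% to 97.8%, which cover counting error only. No plus-strand tRNA passed 7 counts in any library, and 3 of them, mt-Ti, mt-Td and mt-Tr, had 0 in all. Each of the 8 minus-strand tRNAs had at least 5 counts in every library and reached 10 in at least 1.

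The tRNA genes with the most counts are printed with the anticodon in capitals, since they carry most of the signal of the class. All are on the minus strand, written 5′ to 3′ as transcribed, from the GENCODE M21 transcripts (mm10), and in each the anticodon sits in a loop of 7 bases closed by a stem of 5 base pairs.
mt-Tp, proline, chrM:15356-15422: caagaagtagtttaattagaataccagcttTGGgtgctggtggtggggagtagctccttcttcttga
mt-Te, glutamate, chrM:14071-14139: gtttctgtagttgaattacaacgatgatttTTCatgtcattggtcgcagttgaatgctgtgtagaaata
mt-Ts1, serine, chrM:6870-6938: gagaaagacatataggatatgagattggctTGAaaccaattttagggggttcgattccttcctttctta
mt-Tc, cysteine, chrM:5192-5257: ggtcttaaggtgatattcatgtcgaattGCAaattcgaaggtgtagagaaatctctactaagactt
mt-Tn, asparagine, chrM:5089-5159: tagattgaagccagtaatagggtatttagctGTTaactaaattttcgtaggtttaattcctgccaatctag

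mt-Tp, the last gene of the map, had 114, 299 and 238 estimated counts in replicates 1, 2 and 3, the most of any tRNA. mt-Te had 53, 76 and 143 counts and mt-Ts1 had 51, 77 and 124. In raw counts mt-Tp was thus highest in the deepest library, replicate 2, while mt-Te and mt-Ts1 were highest in replicate 3. Relative to all counts of the same library, mt-Tp, mt-Te and mt-Ts1 were each highest in replicate 3 and lowest in replicate 2. mt-Tc had 30, 65 and 63 counts, and mt-Tn, its neighbour across the 32-base gap, had 18, 29 and 35. mt-Ty, for tyrosine, had 10, 30 and 21 counts, and mt-Tq and mt-Ta, for glutamine and alanine, had at most 10 in any library. These last 2 overlap in level with the highest plus-strand tRNA, mt-Tm, for methionine, which had 17 counts over the 3 libraries against 26 and 22.

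The strands also differ in what lies beside a tRNA gene. On the plus strand 13 of 14 tRNA genes have an mRNA or rRNA gene of the same strand within 10 bases, and on the minus strand 1 of 8 does. That gene is mt-Te, which abuts mt-Nd6 and had 272 counts over the 3 libraries. mt-Ts2, the plus-strand tRNA with no such neighbour, had 1. The minus-strand tRNAs without such a neighbour had 22 to 651. Strand and neighbourhood differ for only these 2 genes, so their parts in the counts cannot be told apart, nor can tRNA, its precursors and RNA of the opposite strand.

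**Figure D5:**
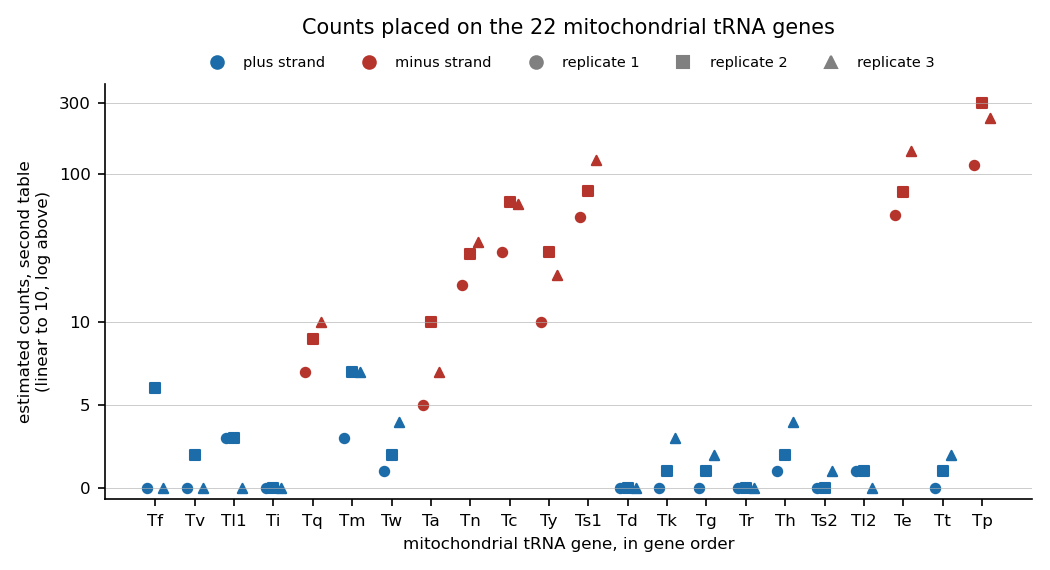
Estimated counts of the second table on each of the 22 tRNA genes in gene order, linear to 10 and logarithmic above, with 1 point per library, blue for the plus strand and red for the minus strand. Plus-strand points stay at 7 or lower, and mt-Tp on the minus strand has the highest, 299.

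Nuclear genes for mitochondrial transcription, RNA processing, RNA stability, RNA decay and DNA maintenance gave the setting of these values. Of 37 such genes measured, 31 reached 1 TPM in all 3 libraries, where 16.8% of all genes did, at a median of 3.38 TPM. Their summed TPM was 185, 157 and 136 in replicates 1, 2 and 3, in the same order as the median of the 9730 genes, 7.28, 6.40 and 5.76 TPM, which was level across libraries after rescaling. Of the transcription genes, Polrmt, the polymerase, stood at 3.47 ± 0.839 TPM, Tfb2m, its initiation factor, at 3.74 ± 0.866 and Mterf3, a member of the termination factor family, at 3.89 ± 0.732. Mterf1b and Mterf2 of the same family were below 1 TPM in all libraries.

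Of the RNA processing genes, Grsf1, a protein of mitochondrial RNA granules, stood at 12.7 ± 1.52 TPM, Hsd17b10, a subunit of mitochondrial ribonuclease P, at 11.3 ± 1.99 and Ptcd2 at 6.15 ± 1.36. The highest stability genes were Slirp at 18.2 ± 6.68 TPM and Lrpprc at 7.34 ± 0.991, which form a complex that stabilises mitochondrial mRNAs, and Fastk at 6.54 ± 1.19. Of the decay genes, Rexo2, an oligoribonuclease, stood at 18.8 ± 2.38 TPM, Pnpt1, the polynucleotide phosphorylase, at 3.96 ± 0.484 and Supv3l1, its helicase partner, at 1.76 ± 0.214. For DNA maintenance, Ssbp1, the single-strand binding protein, stood at 5.65 ± 0.622 TPM, Rnaseh1 at 3.63 ± 0.598 and Polg, the DNA polymerase, at 3.60 ± 0.631. Polg2, its accessory subunit, and Top1mt, the mitochondrial topoisomerase, were below 1 TPM in all libraries. Slirp was the gene with the widest spread of those named, at 25, 17.8 and 11.7 TPM in replicates 1, 2 and 3, with replicate 3 lowest.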

How the data were processed

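The values used are those deposited for each library, a gene table and a first and second transcript table. Per the deposited notes, all use mm10 with GENCODE M21, the gene table and first transcript table from alignments and the second transcript table directly from reads. The sources used here do not name the tools. Deposited expected counts (gene and first transcript table) and estimated counts (second) are read estimates, not always whole. Deposited TPM is corrected for length with a fixed sum per library, and deposited FPKM is corrected for length without it. Rows naming no gene held 0.402%, 0.108% and 0.122% of expected counts in replicates 1, 2 and 3 and were left out.

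With 1 group, no test between groups was possible. The members and gene lists, and the rules for naming genes, were chosen with earlier results of these data known: every mRNA, rRNA and tRNA with 10 counts is named, with the 3 highest genes of each other list, those of it below 1 TPM, and the 5 nearest profiles. Prorp and Fastkd4 had no row under these symbols; 1110008L16Rik and Tbrg4, the names these genes carry in the tables, were measured. Positions and sequences came from GENCODE M21. Windows of 31 and 100 bases of each member were searched in all transcripts on the same strand. Each copy on chromosome 1 was compared with its mitochondrial gene base by base.

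Spread was the SD of log2(TPM + 1). The expected counts were rounded to whole numbers for edgeR 4.0.16 in R 4.3.3 (filterByExpr at a minimum count of 10, TMM, estimateDisp with an intercept only), which draws each gene towards the trend of all genes and so understates the spread of a set that differs from it. DESeq2 1.42.0 was an alternative, beside other pseudocounts, rescaled TPM, FPKM, posterior means and leaving out each library. The procedures were tested on simulated data. With 3 libraries the exact two-sided sign-flip test cannot go below p = 0.25.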

Additional observations from a re-analysis of the deposited data

How the results depend on the processing

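Of 98 alternatives over 12 results, 4 reversed a sign, each in a log2 difference between genes; shares, levels and spreads cannot change sign. The alternatives that add the chromosome 1 copies, use the full length or take the common shift from the median deviation were chosen after seeing the data. With the copies added the share of TPM on the 37 genes was 0.831% against 0.549%, the median mRNA TPM 417 against 284 and mt-Atp8 over mt-Atp6 1.41 against 3.93 (log2). Reversed were mt-Nd6 over the 12 other mRNAs, -0.64 against 0.22, and mt-Nd4l over mt-Nd4, 1.02 against -0.07. The SD left after removing the median level of the mRNAs, 0.08, became 0.18 with the copies and 0.04 with the copies and the median deviation. The second table gave 0.221% of TPM, a median of 129 TPM, 0.01 for mt-Nd6, 0.36 for mt-Atp8 over mt-Atp6, a reversed 1.02 for mt-Nd4l over mt-Nd4, rRNA at 0.543% of mRNA TPM against 0.225%, and -489 counts for plus-strand minus minus-strand tRNAs against 0. Counts per base of full length gave 0.09 for mt-Nd6, 1.33 for mt-Atp8 over mt-Atp6 and -1.60 for mt-Nd4l over mt-Nd4, and with the copies a reversed -1.19 and -0.51 for the pairs. The median mRNA level was 573 FPKM, and 1319 TPM after rescaling. Posterior mean TPM gave 3.31 for mt-Atp8 over mt-Atp6. Without mt-Atp8 and mt-Nd4l, mt-Nd6 stood at 0.36. The coefficient of variation was 0.304 beside 0.104 for the 12430 genes that passed the filter. Without a filter it was 0.269 beside 0.291 for 22129 genes, and with DESeq2, also without a filter, 0.490 beside 0.334. The causes were not tested beyond these settings.

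Leaving out each library in turn gave 0.19 to 0.75 for the median SD of the mRNAs, 0.05 to 0.09 after removing the common shift and 0.0942 to 0.265 for the coefficient of variation, each lowest without replicate 3. The share of counts was 0.495% to 0.764%, the share of TPM 0.430% to 0.633%, the median TPM 224 to 324, mt-Nd6 0.16 to 0.27, mt-Atp8 over mt-Atp6 3.72 to 4.07, mt-Nd4l over mt-Nd4 -0.13 to -0.01, the rRNA share 0.164% to 0.287% and the second over the first table -1.44 to -1.31. No paired analysis was possible because the libraries form 1 group. The tRNAs had effective lengths of 0 or at most 21.2 bases and at most 664 counts in a library.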
